A study of Mus musculus with 374 samples.

Results

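Ly6a, Ly6c1, Ly6c2, Ly6d, Ly6e and Ly6g were chosen by name as members of the Ly6 family, and all 6 were found among the 19829 mouse gene rows of the count table. For each, the UMIs (unique molecular identifiers, each standing for 1 captured mRNA molecule) were summed over the cells of a sorted population and scaled to 1000000 UMIs on mouse genes (CPM). The study profiled single cells of the main blood lineages of 1 C57BL/6 female mouse of 10-13 weeks, with no allele or treatment named in the labels. Of the 374 wells of 1 plate, 44 held B lymphocytes (B220+ FSC-A low, here B cells), 96 erythroblasts (Ter119+ CD44+ FSC-A mid/high), 96 granulocytes (Mac1+ Gr1+) and 95 progenitor/stem cells (Lin- Kit+ Sca1+, here LSK cells), all of the bone marrow. The other 43 held T lymphocytes (CD3+ FSC-A low, here T cells) from the thymus. The sorter stored the fluorescence of every cell beside its well (index data).

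Ly6 proteins are small surface proteins with a three-finger fold that are held in the membrane by a lipid, the GPI anchor. Immunologists use several of them to sort blood cells: the Sca-1 antigen of stem cells is the product of Ly6a, and the Gr1 antibody binds the Ly6g protein of neutrophils and, more weakly, the Ly6c proteins of neutrophils and monocytes. Ly6d marks cells that enter the B lineage, and Ly6e is widely expressed and induced by interferon. The gates for granulocytes and for LSK cells therefore used proteins of this family, and the other gates did not.

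In GENCODE M21 (GRCm38) the 6 genes are protein-coding and lie within 397 kb of chromosome 15, and no other annotated gene overlaps any of them. Ly6d is at chr15:74762056-74763620 on the minus strand and Ly6e at chr15:74955051-74959905 on the plus strand. Ly6a, at chr15:74994877-74998031, Ly6c1, at chr15:75044018-75048830, and Ly6c2, at chr15:75108158-75111970, follow on the minus strand. Ly6g, at chr15:75155240-75159126, is on the plus strand. Ly6c1 and Ly6c2 are close copies. Of the 351 words of 50 bases in the last 400 bases of the longest Ly6c1 transcript, 82 (23.4%) also occur in Ly6c2 transcripts, and 88 of 351 (25.1%) the other way round, so the division of UMIs between this pair is uncertain. The ends of Ly6d, Ly6e, Ly6a and Ly6g share no such word with any other annotated gene.

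The sequences around the start sites of Ly6c1, Ly6c2 and Ly6g are shown because only these members had a window in the source used. These 3 genes had their highest level in the granulocyte gate, as did Ly6a, which has no window there. The windows are from RefSeq (GRCm38.p6), which holds such a window for 3 of the 6 members, and each spans 300 bases around the start on the gene's own strand. They lie at chr15:75048788-75049087 (minus strand), chr15:75111922-75112221 (minus strand) and chr15:75155011-75155310 (plus strand). Capitals mark every run of at least 12 bases that all 3 windows hold.
Ly6c1: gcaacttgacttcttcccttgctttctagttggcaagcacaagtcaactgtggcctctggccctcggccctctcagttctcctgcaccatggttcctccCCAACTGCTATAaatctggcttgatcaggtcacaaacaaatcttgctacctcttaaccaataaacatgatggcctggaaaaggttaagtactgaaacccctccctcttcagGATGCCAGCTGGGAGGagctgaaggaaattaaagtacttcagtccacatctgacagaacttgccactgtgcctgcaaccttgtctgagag
Ly6c2: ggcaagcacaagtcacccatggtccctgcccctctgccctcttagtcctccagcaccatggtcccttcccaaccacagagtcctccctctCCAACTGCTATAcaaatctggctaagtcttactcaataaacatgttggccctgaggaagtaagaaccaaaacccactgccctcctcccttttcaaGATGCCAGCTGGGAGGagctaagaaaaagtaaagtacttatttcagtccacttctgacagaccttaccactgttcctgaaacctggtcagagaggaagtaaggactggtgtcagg
Ly6g: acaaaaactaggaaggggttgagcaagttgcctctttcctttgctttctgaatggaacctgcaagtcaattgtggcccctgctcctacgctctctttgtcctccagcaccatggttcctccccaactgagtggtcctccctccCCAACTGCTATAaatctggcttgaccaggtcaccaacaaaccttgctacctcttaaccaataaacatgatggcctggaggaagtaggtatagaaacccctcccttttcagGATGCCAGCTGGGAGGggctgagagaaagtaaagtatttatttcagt

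The run of 16 bases occurs in 7 of all 32851 windows and the run of 12 bases in 6, and each time in windows of 4 genes only, which are these 3 and Ly6a2. In a global alignment Ly6c1 and Ly6g were identical in 220 of 346 columns (63.6%), Ly6c1 and Ly6c2 in 214 of 340 (62.9%), and Ly6c2 and Ly6g in 186 of 378 (49.2%). Letters of 4 motifs were searched on both strands. The core AGGAAGT, bound by the myeloid factor PU.1, occurs 2 times in the window of Ly6c2, 1 time in that of Ly6g, 0 times in that of Ly6c1 and in 9.35% of all windows. The C/EBP motif TTGCNNAA occurs 1 time in the window of Ly6g, in neither of the others and in 10.8% of all windows. The TATA box letters TATAAA occur 1 time each in those of Ly6c1 and Ly6g, not in that of Ly6c2 and in 13.6% of all windows. The interferon-stimulated response element is in none of the 3 windows and in 3.44% of all. A match of letters is a description and was not tested for binding.

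The populations differed in depth. The wells held a median of 3028.5 UMIs in the B cells, 4347 in the T cells, 3880 in the granulocytes, 6113.5 in the erythroblasts and 7959 in the LSK cells, and their sums ranged from 135808 to 834812 UMIs. Every marker list of a sorted population was highest in the population it names. The granulocyte gate was not uniform: 13 of its 96 wells held 20 to 105 UMIs of 7 monocyte genes (Csf1r, Ccr2, F13a1, Ly86, Klf4, Irf8 and Ms4a6c), and the other 83 held at most 3. This division was made after the values had been seen, and the levels of Ly6e, Ly6a, Ly6c1, Ly6c2 and Ly6g in the granulocytes are given with and without the 13 wells. B cell well A8 stood apart with 519 UMIs of granulocyte markers and a Gr1 fluorescence of 15209. All cells came from 1 mouse and each population filled its own plate rows. Each population is therefore 1 sample, plate row and population cannot be told apart, no test between populations was possible, and the 95% intervals given cover counting error only.

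**Figure D1:**
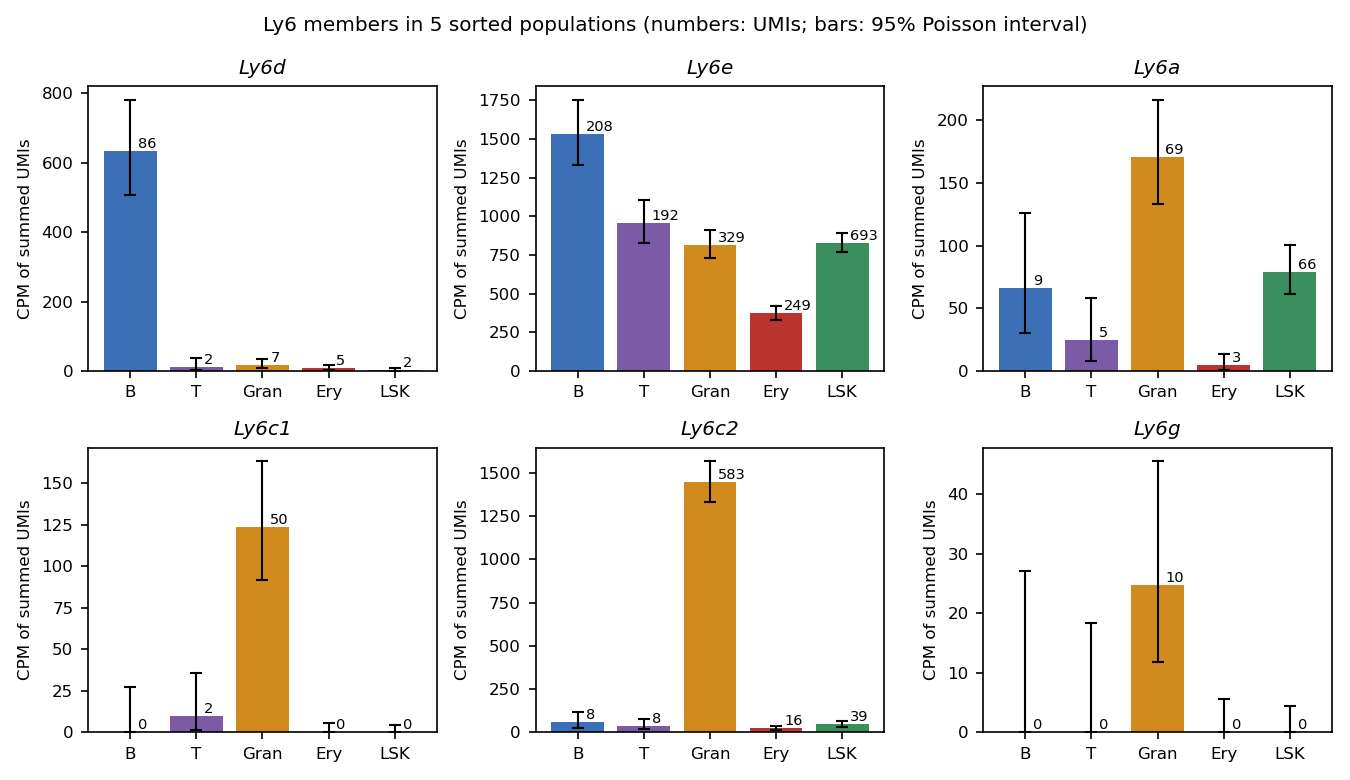
Level of each Ly6 member in the 5 populations, as CPM of summed UMIs (linear axes from 0, a different scale in each panel), with the number of UMIs beside each bar and 95% exact Poisson intervals as error lines. Ly6d stands highest in the B cells, Ly6c1, Ly6c2 and Ly6g in the granulocytes, and Ly6e is present in all 5 populations.

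The members fell into different patterns. Among genes with at least 50 UMIs in all, 4 of 5 members (Ly6d, Ly6a, Ly6c1 and Ly6c2) had a highest population at least 2-fold above the next, against 24.1% of all 6317 such genes. Ly6e did not, and Ly6g, with 10 UMIs, was below the minimum. Ly6d (86 of 102 UMIs in the B cells) and Ly6c1 (50 of 52 in the granulocytes) passed the minimum only through their highest population. Their place in this count was therefore partly set by the minimum. Without the 13 wells, 4 members reached the minimum and 2 of them, Ly6d and Ly6c2, were 2-fold above the next population, against 24.8% of genes. Ly6a then stood 1.83-fold above and Ly6c1 was below the minimum. In the granulocytes against the LSK cells, 3 of 4 members (Ly6a, Ly6c1 and Ly6c2, but not Ly6e) were at least 2-fold higher, against 13.7% of genes. Without the 13 wells, 1 of 3 members (Ly6c2) was, against 13.2% of genes. In the B against the T cells, 1 of 2 members (Ly6d) was at least 2-fold higher, against 9.34% of genes. In these comparisons of 2 populations, Ly6c1, Ly6c2 and Ly6d passed the minimum only through the population where they were higher.

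Ly6d was a transcript of the B cells. It reached 633 CPM there (86 UMIs, interval 507 to 782). The granulocytes had 17.3 CPM (7 UMIs, 6.97 to 35.7), the T cells 9.98 (2 UMIs, 1.21 to 36.1), the erythroblasts 7.50 (5 UMIs, 2.44 to 17.5) and the LSK cells 2.40 (2 UMIs, 0.29 to 8.65). The B cells were 36.5-fold above the granulocytes, the next population (interval 17.0 to 93.5), and the neighbours further down did not differ beyond their counting error. A UMI was found in 31 of 44 B cell wells (70.5%), with 0 at the lowest, 1 at the median and 12 at the highest well. In the other populations at most 7.29% of wells had a UMI of Ly6d, and no well had more than 1. After thinning every well to 2000 UMIs, 57.6% of 33 B cell wells and at most 2.38% of the wells of any other population had a Ly6d UMI. Both plate rows of B cells held 43 UMIs, or 609 and 660 CPM.

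The genes whose distribution over the 5 populations was most like that of Ly6d were Cd74, the invariant chain of MHC class II, Ebf1, a transcription factor of the B lineage, and Igkc, the kappa light chain. Likeness was the summed absolute difference of the population shares of CPM divided by 2, which is 0 for equal and 1 for disjoint patterns. It was 0.0123 for Cd74, 0.0169 for Ebf1 and 0.0182 for Igkc.

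Ly6e was found in all populations and in most wells. The level was 1532 CPM in the B cells (208 UMIs, 1330 to 1754), 958 in the T cells (192 UMIs, 827 to 1104), 830 in the LSK cells (693 UMIs, 769 to 894), 815 in the granulocytes (329 UMIs, 730 to 908) and 373 in the erythroblasts (249 UMIs, 329 to 423). The B cells stood 1.60-fold above the T cells (1.31 to 1.96), and the granulocytes 2.18-fold above the erythroblasts (1.85 to 2.58). The T cells, LSK cells and granulocytes, in the middle of the order, did not differ from their neighbours there beyond counting error. Every B cell well and every LSK well had at least 1 UMI of Ly6e, as did 41 of 43 T cell, 82 of 96 erythroblast and 68 of 96 granulocyte wells. The medians per well were 4, 6, 3, 2 and 1 UMIs in that order, and the highest wells held 13, 27, 30, 10 and 38. The patterns most like that of Ly6e were those of Tug1 (0.0288), a long non-coding RNA, Aftph (0.0336), which encodes a protein of vesicle traffic, and Senp3 (0.0395), a SUMO protease.

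Most of the Ly6e UMIs of the granulocyte gate lay in few wells. The 13 wells with monocyte transcripts held 22.8% of the UMIs of the gate and 66.6% of its Ly6e UMIs. Their wells ranged from 6 to 38 Ly6e UMIs with a median of 15, while the other 83 wells ranged from 0 to 7 with a median of 1, so the ranges met only at 6 and 7 UMIs. The level was 2384 CPM (2079 to 2722) in the 13 wells and 353 CPM (290 to 425) in the 83, a 6.75-fold difference. Without the 13 wells the granulocyte level was thus close to the 373 CPM of the erythroblasts.

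Ly6a, which encodes Sca-1, was not highest in the cells sorted for Sca-1. The granulocytes had 171 CPM (69 UMIs, 133 to 216) and the LSK cells 79.1 (66 UMIs, 61.1 to 101). The B cells had 66.3 CPM (9 UMIs, 30.3 to 126), the T cells 25.0 (5 UMIs, 8.10 to 58.2) and the erythroblasts 4.50 (3 UMIs, 0.93 to 13.1). On the CPM scale the granulocytes were 2.16-fold above the LSK cells (1.52 to 3.08), and the LSK cells did not differ from the B cells beyond counting error. Per well the levels were close, with 0.719 UMIs in the granulocytes and 0.695 in the LSK cells, which were about 2 times as deep. Scaled to the ERCC spike-in RNA added to every well, the log2 ratio of granulocytes over LSK cells was 0.16, against 1.11 on the CPM scale.

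A Ly6a UMI was found in 44 of 96 granulocyte wells (45.8%) and 41 of 95 LSK wells (43.2%), with at most 6 in a well of either. The erythroblasts, with 3 of 96 wells (3.12%), give the level in cells that had least of the transcript. In wells thinned to 2000 UMIs the shares were 19.8% (12.0 to 29.8) in the granulocytes, 10.5% (5.16 to 18.5) in the LSK cells and 1.05% (0.03 to 5.73) in the erythroblasts. All 4 plate rows of granulocytes lay between 146 and 200 CPM and all 4 of LSK cells between 67.0 and 88.2. These ranges of point values did not overlap, but counting intervals of single rows did. Granulocyte row G had 77.5 to 249 CPM and LSK row L 52.3 to 139. Plate rows hold cells of the same mouse and are not replicates. In the 13 wells with monocyte transcripts Ly6a was 261 CPM (167 to 389) and in the other 83 it was 144 (105 to 193), a log2 ratio of 0.86 (0.08 to 1.60) that was 0.84 (-0.03 to 1.66) without well I13. Genes most like Ly6a in pattern were Ggh (0.0181), a folate hydrolase, Cst3 (0.0304), the protease inhibitor cystatin C, and Neurl3 (0.0375).

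The Sca-1 fluorescence of the same cells followed another order. It ranged from 2123 to 25890 arbitrary units, with a median of 5161, in the LSK cells, which were gated on it. In the granulocytes the median was 62.5 and the highest well 906, so none of the 96 wells reached the range of the LSK cells. The medians were 3 in the erythroblasts, 10.5 in the B cells and 193 in the T cells. The granulocyte wells thus had the highest Ly6a level in CPM and no well with Sca-1 fluorescence in the gated range. Within this gate the 48 wells above the median Sca-1 fluorescence had 218 CPM of Ly6a and the 48 others 122 CPM. The log2 ratio was 0.83 (0.09 to 1.61), or 0.46 (-0.45 to 1.37) without the 13 wells with monocyte transcripts. The rank correlation over the 96 wells was 0.13.

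**Figure D2:**
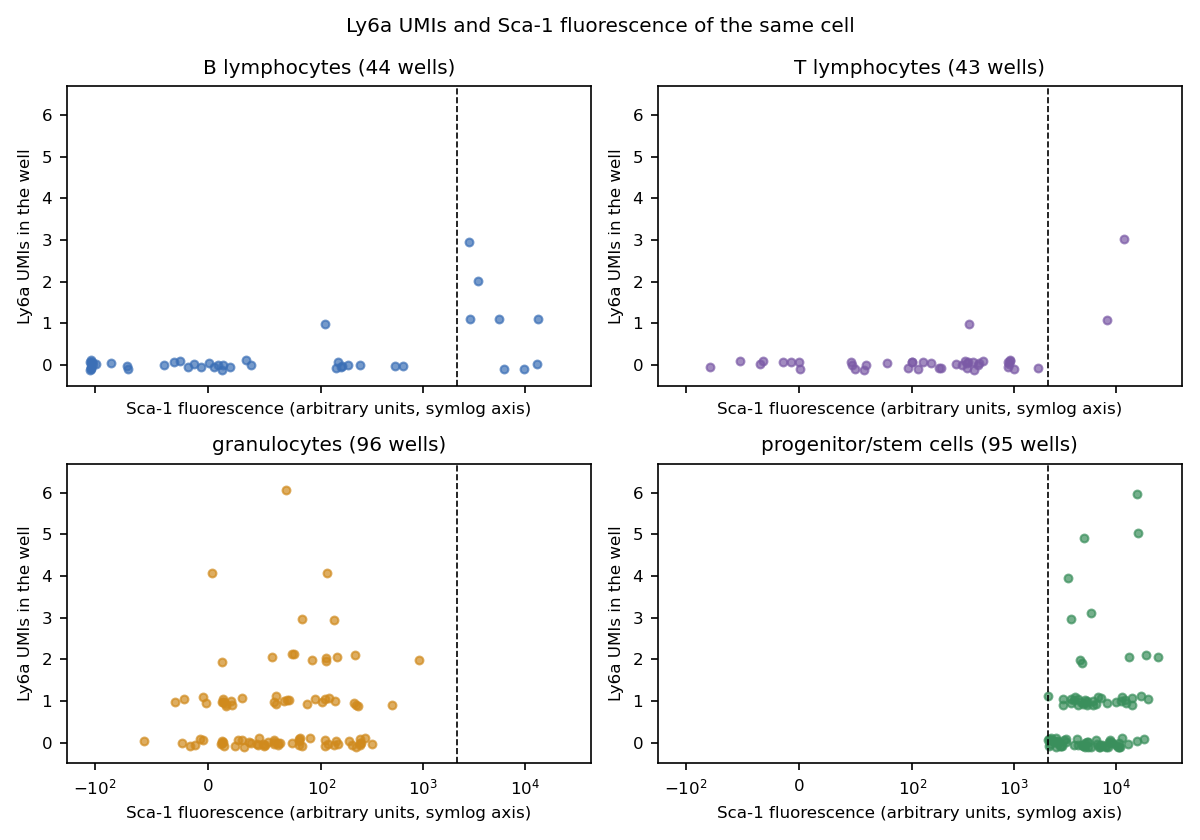
Ly6a UMIs per well (linear axis, points shifted slightly up or down to part equal counts) against the Sca-1 fluorescence of the same cell (arbitrary units, symmetric log axis) in 4 populations. The dashed line at 2123 is the lowest value of the LSK cells. Of the 9 lymphocyte wells with a Ly6a UMI, 7 lie right of it, whereas all granulocyte wells lie left of it.

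Within the lymphocytes the transcript went with the protein. Of 44 B cell wells, 8 had a Sca-1 fluorescence at or above 2123, from 2839 to 13448, and the next lower well, A8, had 632. These 8 wells held 8 of the 9 Ly6a UMIs of the population, in 5 wells with 3, 2, 1, 1 and 1 UMIs, and 3 wells had none. The other 36 wells held 1 UMI, in a well with a fluorescence of 108. The 8 wells had 15.7% of the UMIs on mouse genes of this population, and the level of Ly6a was 375 CPM in them and 8.74 CPM in the others. The ratio was 42.9, with a counting interval of 5.75 to 1904. In the T cells 2 wells, with Sca-1 fluorescence of 8229 and 11933, held 1 and 3 of the 5 Ly6a UMIs, and the other 41 wells held 1. There the ratio was 86.4, with an interval of 8.55 to 4255.

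Over both kinds of lymphocyte, 7 of 10 wells in the Sca-1 range of the LSK cells and 2 of 77 wells outside it had a Ly6a UMI. Well B2, which held 3 of the B cell UMIs, also had a CD3 fluorescence of 7905, and without it the ratio in the B cells was 30.6 (3.43 to 1448). The other members were compared in the same wells. Ly6e was 2343 CPM in the 8 B cell wells and 1380 in the other 36, a 1.70-fold difference (1.21 to 2.35). Ly6d, with 750 and 612 CPM, did not differ beyond counting error (1.23-fold, 0.66 to 2.13). Among the B lineage markers Vpreb3, a gene of immature B cells, had 4 UMIs (187 CPM) in the 8 wells and 197 (1721 CPM) in the others, whereas Ighm, the heavy chain of IgM, had 4639 and 4674 CPM. Cd79a, a chain of the B cell receptor complex, had 1921 and 1005 CPM. Of the other listed markers, Cd79b (1218 and 1398 CPM), Ms4a1 (469 and 454) and Ebf1 (234 and 454) did not differ beyond counting error. Pax5 had 0 UMIs in the 8 wells and 2 in the others.

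Within the LSK cells, all of which were above 2123, the relation was weaker. The 47 wells above the median Sca-1 fluorescence held 35 Ly6a UMIs and the 48 others held 31, or 88.9 CPM (61.9 to 124) and 70.3 CPM (47.8 to 99.8), a log2 ratio of 0.34 (-0.40 to 1.08). A UMI was found in 21 of the 47 and in 20 of the 48 wells. Between the top 31 and the bottom 31 wells by fluorescence the log2 ratio was 1.15 (0.17 to 2.20). Over the 95 wells the rank correlation of fluorescence with Ly6a CPM was 0.26 (Spearman) and 0.31 (Pearson, on log2(CPM + 10)), given as a description of sparse counts that share a plate and differ in depth.

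Ly6c2 was the member with the clearest place in the granulocyte gate. It reached 1445 CPM there (583 UMIs, 1330 to 1567). The B cells had 58.9 CPM (8 UMIs, 25.4 to 116), the LSK cells 46.7 (39 UMIs, 33.2 to 63.9), the T cells 39.9 (8 UMIs, 17.2 to 78.7) and the erythroblasts 24.0 (16 UMIs, 13.7 to 39.0). The granulocytes were 24.5-fold above the B cells (12.4 to 57.1), and no neighbours among the other 4 populations differed beyond counting error. Without the 13 wells the granulocyte level was 1165 CPM, 19.8-fold above the B cells (9.93 to 46.1). Of the 8 UMIs of the B cells 3 were in well A8, and without it the level was 38.1 CPM. A Ly6c2 UMI was found in 74 of 96 granulocyte wells (77.1%), with a median of 5 and a highest value of 54. Genes most like it in pattern were Lyz2 (0.0125), the lysozyme of myeloid cells, Wfdc21 (0.0131) and Ifitm6 (0.0190), a gene of the interferon-induced transmembrane family.

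Low counts of Ly6c2 outside the gate were set against those of granulocyte markers in the same wells. The part of RNA carried over between wells in these counts was not tested. For every 100 UMIs of Retnlg, Mmp8, Lcn2, Camp, Ltf, Ngp, S100a9 and S100a8 together there were 0.953 Ly6c2 UMIs in the granulocytes (0.877 to 1.03), 0.880 in the B cells (0.380 to 1.73), 1.09 in the T cells (0.472 to 2.16) and 1.39 in the erythroblasts (0.797 to 2.27). In the LSK cells it was 2.04 (1.45 to 2.79). Well A8 held 519 of the 909 marker UMIs of the B cells, and without this well the B cell ratio was 1.28 (0.416 to 2.99). Without the 13 wells with monocyte transcripts the granulocyte ratio was 0.611 (0.550 to 0.677). The intervals of the B and T cells include the granulocyte ratio with and without these wells, that of the erythroblasts includes it only with them, and that of the LSK cells lies above both. The share of wells with a UMI was 28.4% in the LSK cells and 15.6% in the erythroblasts, but 8.42% (3.71 to 15.9) and 7.37% (3.01 to 14.6) after thinning to 2000 UMIs. For Ly6a the same ratio was 3.45 in the LSK cells (2.67 to 4.39) and 0.113 in the granulocytes (0.0877 to 0.143), or 0.0758 without the 13 wells.

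Ly6c1 and Ly6g were found almost only in the granulocytes, at low counts. Ly6c1 had 50 UMIs there, or 124 CPM (92.0 to 163), in 32 of 96 wells and with at most 5 in a well. The T cells had 2 UMIs (9.98 CPM, 1.21 to 36.1), a ratio of 12.4 with an interval of 3.26 to 105. No UMI was found in the B cells, erythroblasts and LSK cells, where 3 UMIs, the floor set for a count of 0, would be 22.1, 4.50 and 3.59 CPM. The intervals there reached 27.2, 5.53 and 4.42 CPM. With the LSK cells set to 3 UMIs the granulocytes were 34.5-fold higher, and the exact counting interval put the ratio at 27.0 or more. In the other 83 wells of the gate Ly6c1 was 109 CPM, 10.9-fold above the T cells (2.80 to 93.9), and the interval against the LSK cells began at 23.4. All 4 plate rows of the granulocytes had Ly6c1, between 89.6 and 153 CPM. In pattern it was most like Il1b (0.0255), which encodes an inflammatory cytokine, Xdh (0.0361), xanthine dehydrogenase, and B230208H11Rik (0.0369).

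Ly6g had 10 UMIs in 9 of the 96 granulocyte wells (9.38%, 4.38 to 17.1), or 24.8 CPM (11.9 to 45.6), and 0 UMIs in the 278 wells of the other populations. Of the 4 plate rows of granulocytes, 3 held 4, 2 and 4 of these UMIs and row I held none. Against the LSK cells, where 3 UMIs would be 3.59 CPM, the granulocytes were 6.90-fold higher, and the exact counting interval put the ratio at 4.64 or more. The 13 monocyte-list wells held no Ly6g UMI, and without them the level was 32.1 CPM and the interval began at 6.00. Against the B cells, where 3 UMIs would be 22.1 CPM, the depth could not show a difference. The genes most like it were Cebpe (0.00786), a transcription factor of granulocyte maturation, Il1rn (0.0167), the interleukin-1 receptor antagonist, and Tgfbi (0.0181). With its 10 UMIs all in the granulocytes, Ly6g is alike in this measure to any gene found almost only there. The measure used all 96 wells of the gate, including the 13 without Ly6g. Between Ly6c2 and Ly6g lies the transcribed pseudogene I830127L07Rik, named here after its values had been seen, which had 352 UMIs in the granulocytes (872 CPM) and 4, 3, 3 and 6 in the B cells, T cells, erythroblasts and LSK cells (4.50 to 29.5 CPM).

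Gr1 fluorescence was compared with the transcripts of the same cells in the granulocyte gate. It ranged from 736 to 49318 arbitrary units there with a median of 18601, and the medians of the other populations were 18 to 77. The 48 wells above the median held 164 Ly6c2 UMIs (997 CPM, 850 to 1162) and the 48 others 419 (1753 CPM, 1589 to 1929), a log2 ratio of -0.81 (-1.08 to -0.55). Wells with more Gr1 fluorescence thus had less Ly6c2 in CPM, whereas Ly6g had 5 UMIs on each side. Ly6e was also lower above the median, with 456 against 1063 CPM. The wells above the median were shallower, with a median of 3094 against 4712 UMIs.

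**Figure D3:**
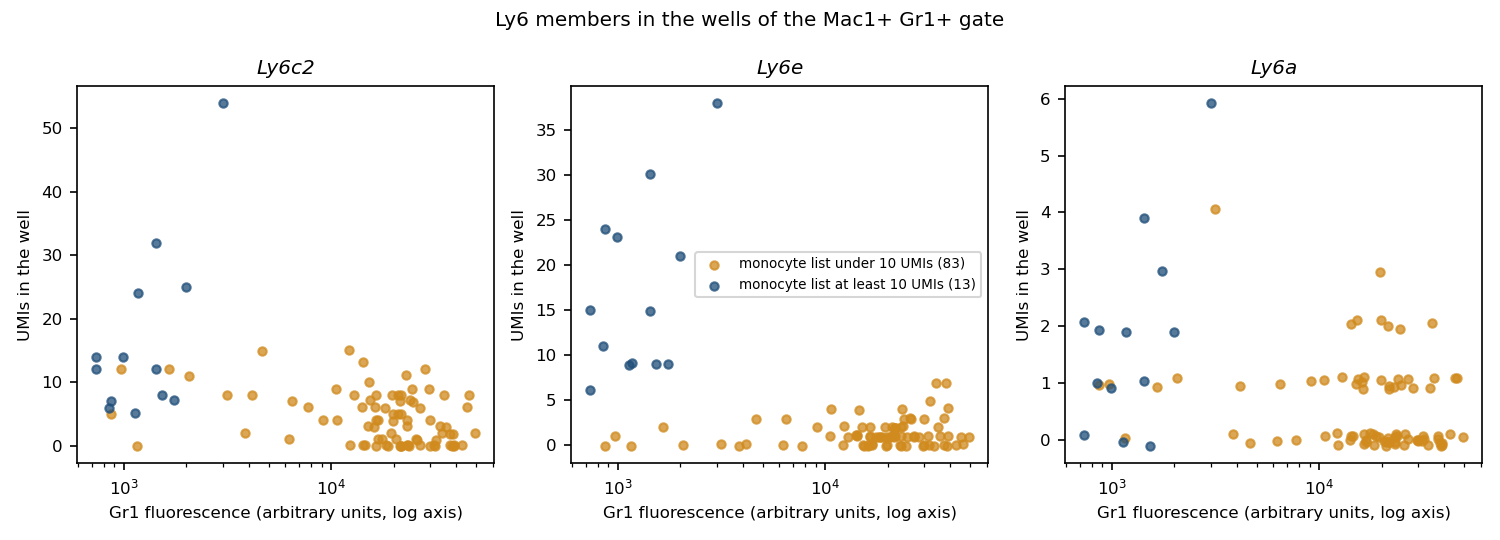
UMIs of Ly6c2, Ly6e and Ly6a per well (linear axes, points shifted slightly up or down to part equal counts) against Gr1 fluorescence (arbitrary units, log axis) in the 96 wells of the Mac1+ Gr1+ gate. The 13 wells with at least 10 UMIs of monocyte genes lie at the low end of Gr1, between 736 and 3007. They include the wells with the highest Ly6c2 and Ly6e counts, but many of them have Ly6c2 counts in the range of the remaining wells.

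The 13 wells with monocyte transcripts lay at the low end of this scale, with Gr1 fluorescence from 736 to 3007 and a median of 1170, against 20943 in the other 83 wells. Their Mac-1 fluorescence was alike, with medians of 1157 and 1177. In 12 of them the 8 granulocyte markers had only 4 to 23 UMIs, against a median of 629 in the other 83 wells. The remaining well, I13, had 1638 of these, 105 of the monocyte genes and 22425 UMIs in all, the most of the gate. In another, I17, 24 of its 39 monocyte-list UMIs were of Irf8, and it also held 3 UMIs of Siglech and 11 of Bst2, markers of plasmacytoid dendritic cells. The 7 monocyte genes, which chose these wells, had from 28 UMIs of Klf4, in 9 of the 13 wells, to 272 of Ccr2, in all 13. In the 83 wells they had from 0 UMIs of Klf4 to 24 of Csf1r.

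Ly6c2 was 2395 CPM (2089 to 2733) in the 13 wells and 1165 CPM (1048 to 1291) in the 83 others, a 2.06-fold difference that was 2.05-fold without well I13. Each of the 13 wells had Ly6c2, from 5 to 54 UMIs, while 22 of the 83 had none. The 10 Ly6g UMIs were all in the 83 wells. In those 83 wells the log2 ratio of Ly6c2 above over at or below their own median Gr1 fluorescence was -0.38 (-0.70 to -0.07), so the difference was smaller without the monocyte-list wells. For Ly6e it turned around, from -1.22 (-1.61 to -0.84) in all 96 wells to 1.06 (0.48 to 1.65) in the 83. The part of other transcripts and of depth in these differences was not tested.

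Among the 81 of these wells with at least 1000 UMIs the members were set beside granule genes of the neutrophil. The rank correlation with the summed share of Ngp, Ltf and Camp, which are stored in secondary granules, was 0.57 for Ly6c2, 0.38 for Ly6a, 0.28 for Ly6g, 0.20 for Ly6c1, 0.05 for Ly6d and -0.59 for Ly6e. With the total UMIs of the well it was 0.51, 0.45, 0.36, 0.25, -0.04 and -0.46 for the same genes. These values describe 81 wells of 1 plate, and the part of depth in them was not tested.

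Further genes of the family were measured beside the members. A list of 40 other genes with a Ly6/uPAR domain was matched by symbol, so genes annotated under other names were not counted. Of the list, 12 genes were in the table and 4 had at least 50 UMIs. All 4 were at least 2-fold above the next population in their highest one, against 24.1% of all 6317 genes. Their median log2 ratio of highest over next was 3.71, against 0.49 over all these genes. Each of the 4 passed the minimum of 50 UMIs only through its highest population, so both values were partly set by the minimum. Cd177, a surface protein of neutrophils, reached 627 CPM in the granulocytes (253 of 264 UMIs, 552 to 709), and Plaur, the urokinase receptor, 149 CPM (60 of 71 UMIs, 113 to 191). Cd59a, an inhibitor of complement lysis, was highest in the erythroblasts, with 100 CPM (67 of 85 UMIs, 77.9 to 128). Ly6i, the neighbour of Ly6a in the cluster, reached 297 CPM in the granulocytes (120 of 134 UMIs, 247 to 356). Ly6f, at the other end of the cluster, had 30 of its 35 UMIs in 20 wells of the LSK cells (35.9 CPM, 24.2 to 51.3) and none in the granulocytes or erythroblasts. The B cells had 11 of the 17 UMIs of Lynx1.

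The 13 monocyte-list wells divided these genes too. Cd177 was 4.37-fold and Plaur 3.24-fold higher in the 83 other wells of the granulocyte gate than in the 13 (for Plaur 2.45-fold without well I13, with an interval that includes equal levels), while Ly6i was 1.96-fold higher in the 13. Ly6i was thus higher in the same wells as Ly6c2 and Ly6e. Ly6g had no UMI in the 13 wells, but a difference was not detectable for it at this depth.

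**Figure D4:**
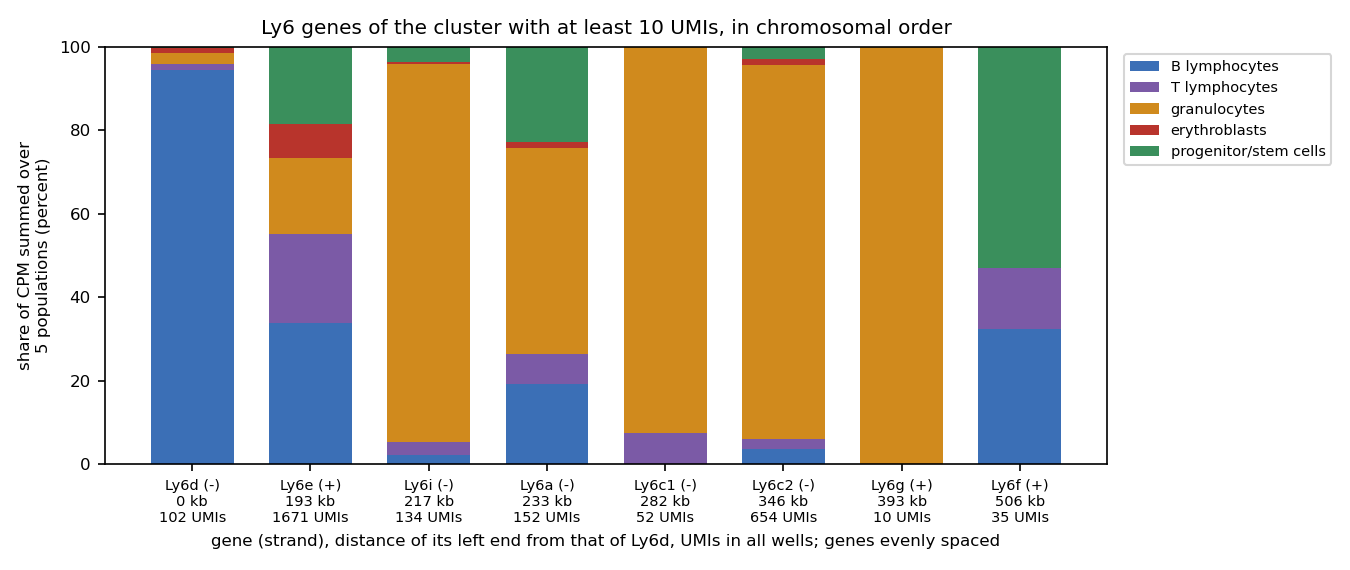
Share of each population (percent of CPM summed over the 5 populations, linear axis) for the 8 Ly6 genes of the cluster with at least 10 UMIs, in chromosomal order and evenly spaced, with strand, distance in kb from Ly6d and UMIs in all wells. The granulocyte share is 100% for Ly6g, 92.5% for Ly6c1 and 89.5% for Ly6c2, and the B cell share is 94.4% for Ly6d.

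Along the cluster, Ly6 genes with at least 10 UMIs and different patterns followed each other. They are not adjacent genes, and Ly6k, with 3 UMIs, is among those that lie between Ly6d and Ly6e. Ly6e, with shares of CPM between 8.28% in the erythroblasts and 34.0% in the B cells, lies between Ly6d, of which 94.4% was in the B cells, and Ly6i. Ly6a, with 49.5% in the granulocytes and 22.9% in the LSK cells, lies between Ly6i and Ly6c1. Ly6f had no UMI in the granulocytes, which had all UMIs of Ly6g, the nearest other gene with a Ly6 symbol.

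Genes needed to make GPI-anchored proteins were measured in all populations at low counts. Of 27 such genes 24 were in the table and 9 had at least 50 UMIs. Of these 9, 1 was at least 2-fold above the next population in its highest one, against 24.1% of all genes. The median log2 ratio of highest over next of the 9 genes was 0.45, close to the 0.49 over all genes. The exception was Pigq, a subunit of the enzyme that starts the anchor, with 595 CPM in the erythroblasts (397 of 467 UMIs, 538 to 657) and 41.9 to 51.5 CPM in the other populations. Dpm3 and Dpm2, subunits of the synthase of dolichol-phosphate mannose, reached 74.3 CPM in the LSK cells and 64.9 CPM in the T cells. Pigx had 84.8 CPM, its highest level, in the T cells and 4.50 CPM in the erythroblasts. Gpaa1, of the complex that joins anchor and protein, had 63.0 CPM in the erythroblasts and 29.5 in the B cells, and Pigm had 66.3 CPM in the B and 64.9 in the T cells.

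Ly6e and Ly6a belong to the interferon-response genes, of which a list was measured beside them. Of 30 listed genes 27 were in the table and 21 had at least 50 UMIs, and of these 15 were highest in the T cells, 3 in the LSK cells, 2 in the granulocytes, 1 in the erythroblasts and 0 in the B cells. Of all 6317 genes, 20.9% were highest in the T cells, 31.9% in the LSK cells, 14.1% in the granulocytes, 18.7% in the erythroblasts and 14.3% in the B cells. Of the 21, 9 were at least 2-fold above the next population, against 24.1% of all genes, and the median log2 ratio of highest over next was 0.81, against 0.49. Ifi27l2a reached 644 CPM (537 to 765) and Trim30a 429 CPM (343 to 530) in the T cells. Rsad2, an antiviral enzyme, was highest in the erythroblasts, with 486 CPM (434 to 542), and Samhd1, which cleaves nucleotides, in the granulocytes, with 815 CPM (730 to 908). Gbp7 had 230 CPM in the T cells, and Ifi27 had 146 CPM in the LSK cells and 145 in the erythroblasts. None of the 21 was highest in the B cells, where Ly6e was.

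The genes of the Mac-1 and Kit antigens were measured beside Ly6a. Itgam, which encodes a Mac-1 chain, was 1103 CPM in the granulocytes (1003 to 1210), with 1271 CPM in the 83 wells and 533 in the 13, and at most 133 in any other population, in the B cells. Kit was 677 CPM in the LSK cells (622 to 735) and at most 39.9 elsewhere. Against these, the gate gene Ly6a was 79.1 CPM in the LSK cells and 171 CPM in the granulocytes.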

How the data were processed

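Single cells of 5 sorted populations of 1 mouse were sequenced by CEL-seq2 on 1 plate of 374 matched wells, each with its own barcode. The authors deposited UMI counts per gene and well, made with scPipe, whose default aligner is Rsubread, and not normalized. Neither a build nor an annotation or strand setting for these counts is given in the sources used here. Of the table's columns 9 matched no sample and were left aside. Gene symbols and positions come from GENCODE M21 (GRCm38). The authors may have used another build. The 74 ERCC rows were kept out of the totals.

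Counts were summed per population and given as CPM with 95% exact Poisson, binomial or conditional binomial intervals, which cover counting error only. A population is 1 sample, so no p-value was computed, and a sum of 0 was set to 3 UMIs in ratios. Intervals and likeness were tested on simulated data. No doublet caller was run. Python 3.11.15, scipy 1.17.1 and, for alternatives, edgeR 4.0.16 and DESeq2 1.42.0 in R 4.3.3 were used. Wells held 8 to 24033 UMIs.

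The members, lists and tests were chosen with earlier results of these data known. The genes named are the 6 members, the 3 genes most like each in pattern among those with at least 50 UMIs, up to 6 genes with the most UMIs of each list, the gate genes and the markers. Alternatives changed the scaling, the wells used, the depth and the minimum count.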

Additional observations from a re-analysis of the deposited data

How the results depend on the processing

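Of 96 recalculations of the 8 log2 ratios, 17 left the counting interval of the value reported and none changed its sign. No paired analysis was possible because each population is 1 sample. For granulocytes over progenitor/stem cells, the log2 ratio of Ly6a (1.11) was 1.88 with TMM factors, 1.67 with DESeq2 size factors and 0.16 per ERCC UMI, and that of Ly6c2 (4.95) was 5.72, 5.51 and 3.99. With the progenitor/stem cell sum set to 3 UMIs, Ly6c1 (5.11) was 4.15 per ERCC UMI and 3.08 in wells thinned to 2000 UMIs, and Ly6g (2.79) was 1.83 per ERCC UMI. Thinned wells gave no ratio for Ly6g, since both sums were at or under 3 UMIs. A mean over wells gave no ratio for Ly6c1 and Ly6g, which had no UMI in the progenitor/stem cells. Ly6e in T over B lymphocytes (-0.68) was -0.24 per ERCC UMI. Ly6a by Sca-1 fluorescence in the progenitor/stem cells (0.34) was 1.15 between the 31 highest and 31 lowest wells, and Ly6c2 by Gr1 fluorescence (-0.81) was -0.38 without the 13 monocyte-list wells, an alternative chosen after seeing the data. Without these wells Ly6c2 per 100 granulocyte-marker UMIs was 0.611 in place of 0.953 in the granulocytes. Leaving out each plate row gave 1.04 to 1.17 for Ly6a, 4.66 to 5.22 for Ly6c1, 4.74 to 5.26 for Ly6c2 and 2.34 to 3.28 for Ly6g in granulocytes over progenitor/stem cells. It gave 4.27 to 6.05 for Ly6d in B over T lymphocytes and -0.94 to -0.38 for Ly6e in T over B lymphocytes, and 0.15 to 0.85 and -1.00 to -0.55 for the ratios by Sca-1 and Gr1 fluorescence. Of the 18 genes named as most like a member, 10, 7 and 16 were also named with a minimum of 20 UMIs, a minimum of 200 UMIs and a cosine distance. With no minimum count the share of genes at least 2-fold above the next population was 48.8% in place of 24.1%. Ly6g, with 10 UMIs, and Ly6c1 are limited by depth, and intervals do not cover differences between animals.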
